A study of Rattus norvegicus with 8 samples.

Results

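The genes described here make, store, recapture and sense dopamine or shape the neurons that do so. They were 10 genes picked by symbol, namely Th, Ddc, Gch1, Aldh1a1, Slc6a3, Slc18a2, Drd1, Drd2, En1 and Ret, of 18003 gene symbols in the files. Together they held 23 of the 98356 alternative polyadenylation (APA) sites, and each had at least 1 site.

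Adult Long-Evans rats, male by the study's methods, breathed vaporized cannabis plant matter in a closed chamber for 10 min, and controls sat in the same kind of chamber with the vaporizer left empty. Hypothalamic tissue, described for the series as mediobasal, was taken 1 hr after the exposure. The rats had fed freely before, and by the study's methods food was withheld for 1 hr before collection. The sequencing compared 4 cannabis-exposed rats (replicates 1, 2, 3 and 5) with 4 air-treated controls (replicates 1, 2, 3 and 4), with 1 library per rat. The method, WTTS-Seq (whole transcriptome termini site sequencing), captures the 3′ end of each polyadenylated RNA, so a read marks 1 APA site and the count of a transcript does not grow with its length.

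Dopamine is made from tyrosine, which tyrosine hydroxylase turns into L-DOPA with tetrahydrobiopterin as cofactor, before aromatic L-amino acid decarboxylase turns L-DOPA into dopamine. A vesicular transporter loads it into synaptic vesicles and the dopamine transporter carries released dopamine back into the neuron. Dopamine neurons of the arcuate nucleus restrain prolactin release from the pituitary, whereas those of the midbrain project to the striatum and cortex and depend on the homeobox gene En1.

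Reads on sites numbered 1159811 in air control 4, the shallowest library, and up to 3706778 in the others, and between 3.32% and 26.1% of sites had no read in a library. Values are normalized counts, in which 1 read was worth 0.664 to 1.99, and a gene total is the sum over the sites of a symbol. Among hypothalamic neuron genes, 9 of 10 had a site, led by Cartpt, a feeding peptide precursor, with a mean of 1096 in controls and 1441 in cannabis-exposed rats. Pomc had means of 70.6 and 86.4 and Agrp had 36.5 and 50.3 in the same order, while Npy had no site with that symbol among those analysed here. The 6 pituitary and choroid plexus genes with a site of 9 listed, led by the pituitary hormone subunit Cga, summed to between 141 and 840 in controls and between 220 and 717 in cannabis-exposed rats. Since whole tissue was sequenced, fewer cells of a type and less RNA per cell cannot be told apart in any of the values that follow.

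Th, Ddc, Slc6a3 and En1 fell after cannabis exposure, and none of the 10 genes rose at limma P under 0.01. By group means the fall was 8.51-fold for Slc6a3, the dopamine transporter, and 8.39-fold for En1, which had only 18 reads over the exposed rats. It was 2.61-fold for Th and smaller for Ddc. These 4 of 10 genes compare with 0.178% of all 18003 gene totals called lower and 0.1% called higher at the same threshold. In the same 4 genes every control exceeded every cannabis-exposed rat, which held for 0.783% of all gene totals. The median log2 difference over the 10 genes was -0.73, beside 0.05 over all gene symbols, and 8 of the 10 had a lower mean after cannabis. Slc6a3, En1 and Th ranked 1, 2 and 3 by P among all gene symbols, and Ddc ranked 17. The 10 genes were chosen with earlier results of these data known, so these shares, the median and the ranks are description and no test. With Benjamini-Hochberg adjustment over all gene symbols, Slc6a3 alone had an adjusted P under 0.1 from limma.

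**Figure D1:**
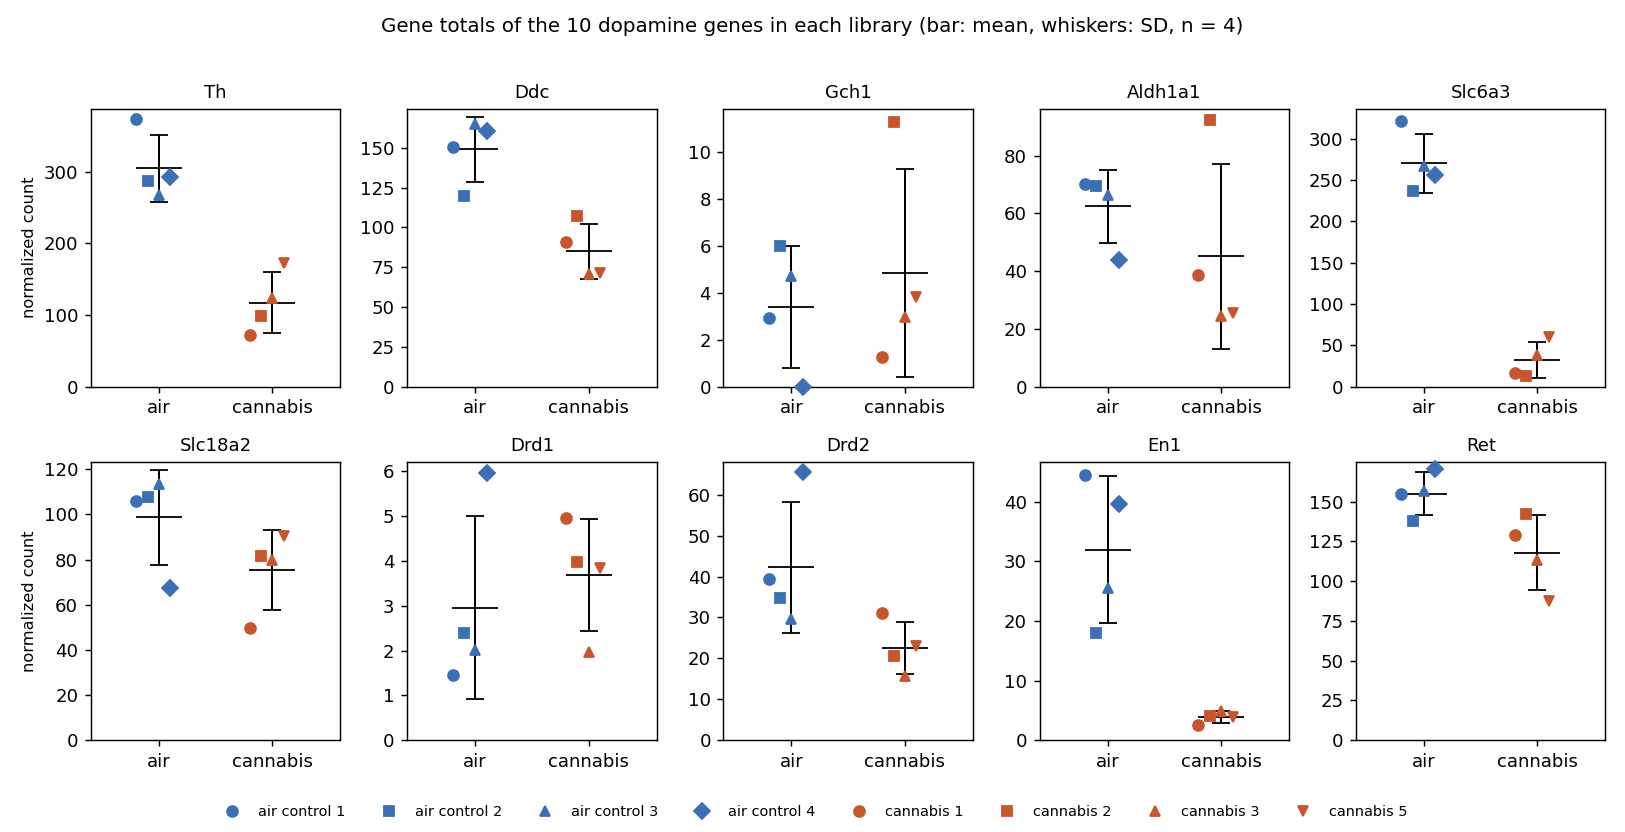
Gene totals in normalized counts (vertical axis, starting at 0) of the 10 genes in each of the 8 libraries, with the mean (bar) and SD (whiskers, n = 4) of each group. The groups do not overlap for Th, Ddc, Slc6a3 and En1, and air control 4 lies apart from the other controls for Slc18a2 and Aldh1a1.

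All 10 genes had a promoter window in the RefSeq promoter table for the GRCr8 assembly, 250 bases before to 50 bases after a transcript start, and Ddc had 3 of the 12 windows. GRCr8 is not the assembly of the deposited files (Rnor_6.0), so these positions are not positions of the APA sites. The windows of the 3 genes with the smallest P are shown, and that of Slc18a2, since it was the only other window of the 10 genes with the cAMP response element found in the Th window. The element searched was TGACGTCA, which reads the same on both strands, and it stands in capitals. The Th window lies on the minus strand at chr1:207508169-207508468, the Slc6a3 window on the minus strand at chr1:31578913-31579212, the En1 window on the plus strand at chr13:34303434-34303733 and the Slc18a2 window on the plus strand at chr1:268399771-268400070.
Th: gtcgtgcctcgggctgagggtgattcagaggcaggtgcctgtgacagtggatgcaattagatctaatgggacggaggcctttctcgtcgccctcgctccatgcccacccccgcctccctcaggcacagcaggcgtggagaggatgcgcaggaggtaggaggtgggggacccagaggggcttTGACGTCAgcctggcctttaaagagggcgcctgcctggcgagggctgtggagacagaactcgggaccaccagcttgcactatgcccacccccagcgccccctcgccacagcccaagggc
Slc18a2: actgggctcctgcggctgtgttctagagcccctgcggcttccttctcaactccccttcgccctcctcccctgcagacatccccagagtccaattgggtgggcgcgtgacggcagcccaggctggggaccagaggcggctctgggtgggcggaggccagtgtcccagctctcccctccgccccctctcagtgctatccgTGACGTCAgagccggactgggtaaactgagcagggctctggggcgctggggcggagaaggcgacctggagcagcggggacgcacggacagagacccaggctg
Slc6a3: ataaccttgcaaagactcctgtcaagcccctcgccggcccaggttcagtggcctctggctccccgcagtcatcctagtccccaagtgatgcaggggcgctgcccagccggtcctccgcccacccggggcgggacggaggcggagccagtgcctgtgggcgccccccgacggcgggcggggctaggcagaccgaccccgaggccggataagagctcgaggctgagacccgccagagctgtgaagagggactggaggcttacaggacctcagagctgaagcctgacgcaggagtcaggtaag
En1: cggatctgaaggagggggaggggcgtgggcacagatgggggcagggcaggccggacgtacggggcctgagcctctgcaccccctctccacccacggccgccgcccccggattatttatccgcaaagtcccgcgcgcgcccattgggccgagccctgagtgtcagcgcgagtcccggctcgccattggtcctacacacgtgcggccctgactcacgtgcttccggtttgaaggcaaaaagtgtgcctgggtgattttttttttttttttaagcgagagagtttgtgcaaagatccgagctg
The element begins 69 bases before the start of Th and 52 bases before that of Slc18a2, and 1.83% of the 33469 promoter windows in the table hold it. These letters were not in the windows of Slc6a3 and En1. The letters TATAAA, on either strand, were in 14.2% of all windows and in those of Ddc alone among the 10 genes, and AAGGTCA, the core of the NBRE nuclear receptor element, was in 4.61% and again in Ddc alone, where both matches lie in 1 window and overlap. A match describes the sequence and shows no binding.

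Tyrosine hydroxylase, encoded by Th, carries out the rate-limiting step of dopamine synthesis. Controls 1 to 4 had Th totals of 373, 287, 267 and 292 normalized counts, and cannabis-exposed rats 1, 2, 3 and 5 had 72.0, 99.0, 124 and 173. The lowest control therefore stood well above the highest exposed rat. The means were 305 ± 46.6 (SD, n = 4) and 117 ± 42.9 (SD, n = 4), so exposed rats had 38.4% of the control level. On the log2(total + 1) scale the difference was -1.43 (SE 0.262, limma P = 9.28e-05, adjusted P = 0.557, exact permutation P = 0.0286, the smallest that 4 against 4 rats allow).

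Ddc encodes aromatic L-amino acid decarboxylase, which also makes serotonin. Its totals were 151, 120, 165 and 161 in controls and 90.7, 107, 70.8 and 71.4 in exposed rats. The groups did not overlap, and exposed rat 2 and control 2 lay closest to each other. The means were 149 ± 20.5 and 85.0 ± 17.3 (SD, n = 4 each), a log2 difference of -0.81 (SE 0.227, limma P = 0.00311, adjusted P = 0.999, exact permutation P = 0.0286). The call at P under 0.01 was lost without control 3, exposed rat 3 or exposed rat 5, where the number of called members was 3.

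Gch1, the first enzyme of tetrahydrobiopterin synthesis, had few reads, 16 over the controls and 26 over the exposed rats. Its totals were 2.9, 6.0, 4.7 and 0 in controls and 1.2, 11.3, 3.0 and 3.8 in exposed rats, with exposed rat 2 the highest. A difference was not detectable at this depth (log2 0.44, 95% confidence interval -1.08 to 1.96 from limma). Aldh1a1 encodes an aldehyde dehydrogenase that clears a toxic dopamine breakdown product and makes retinoic acid. Its totals were 70.2, 69.4, 66.5 and 43.7 in controls and 38.5, 92.3, 24.6 and 25.3 in exposed rats. Exposed rats 1, 3 and 5 lay below every control, and exposed rat 2 lay above all of them. The log2 difference was -0.65 (limma P = 0.113, adjusted P = 0.999, exact permutation P = 0.4). Without exposed rat 2 it was -1.06 and passed the limma threshold (adjusted P = 0.999), which brought the called members to 5.

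Slc6a3 encodes the dopamine transporter, the plasma membrane carrier that ends dopamine signalling. Controls had 321, 237, 267 and 256 normalized counts and exposed rats had 16.1, 12.6, 38.4 and 59.9. All exposed rats lay far under the lowest control, exposed rat 2 lowest. The means were 270.2 ± 36.0 and 31.8 ± 22.0 (SD, n = 4 each), that is 1163 reads against 149. The log2 difference was -3.30 (SE 0.399, 95% confidence interval -4.16 to -2.44, limma adjusted P = 0.0218). That adjusted P lay between 4.86e-10 and 0.419 over the 16 alternatives, highest in limma without the mean-variance trend. It was above 0.1 without control 1 (limma adjusted P = 0.250), control 2 (0.127), control 3 (0.113) or exposed rat 1 (0.102), and the log2 difference stayed between -3.36 and -3.08 in those fits. Slc18a2 encodes the vesicular monoamine transporter, which all monoamine neurons use. Its totals were 106, 108, 113 and 67.5 in controls and 49.7, 81.7, 79.7 and 90.6 in exposed rats. Control 4 lay among the exposed rats, and the log2 difference was -0.39 (95% confidence interval -0.96 to 0.18, limma P = 0.165, exact permutation P = 0.114).

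The receptors were counted less often. Drd1, the receptor that raises cAMP, had 10 reads over the controls and 17 over the exposed rats, with totals of 1.5 to 6.0 and 2.0 to 5.0, and no difference was detectable at this depth. Drd2, which lowers cAMP and also serves as an autoreceptor on dopamine neurons, had totals of 39.5, 34.7, 29.5 and 65.5 in controls and 31.0, 20.6, 15.7 and 23.0 in exposed rats. Exposed rat 1 exceeded control 3, while the others lay below every control. The log2 difference was -0.85 (95% confidence interval -1.56 to -0.14, limma P = 0.0228, exact permutation P = 0.0571), which did not pass the threshold.

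En1 encodes a homeobox factor of the midbrain and anterior hindbrain that dopamine neurons of the midbrain need for survival. Its totals were 44.6, 18.0, 25.5 and 39.7 in controls and 2.5, 4.0, 4.9 and 3.8 in exposed rats. No exposed rat came near the lowest control. The means were 31.9 ± 12.3 and 3.81 ± 1.00 (SD, n = 4 each), from 134 reads over the controls and 18 over the exposed rats. The log2 difference was -2.72 (SE 0.404, limma adjusted P = 0.107, exact permutation P = 0.0286). Ret encodes the receptor tyrosine kinase through which GDNF acts on dopamine and other neurons. Its totals were 155, 138, 156 and 171 in controls and 129, 142, 113 and 87.6 in exposed rats, with exposed rat 2 above control 2. The log2 difference was -0.41 (limma P = 0.0819, exact permutation P = 0.0571).

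**Figure D2:**
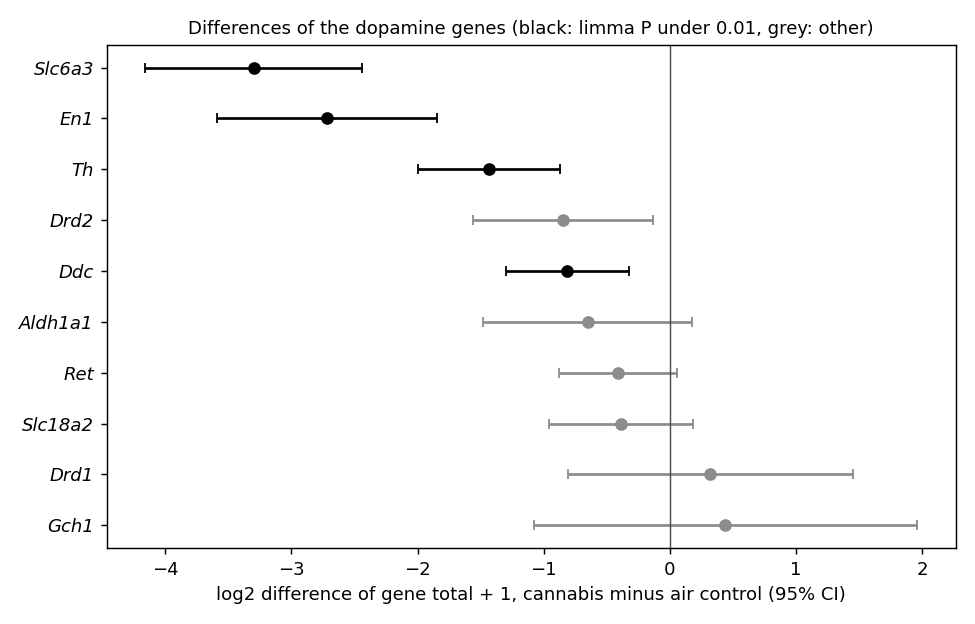
Log2 difference in gene total + 1 (cannabis minus air control) with its 95% confidence interval from limma for each of the 10 genes. The intervals of Slc6a3, En1, Th, Ddc and Drd2 lie below 0, and those of Gch1 and Drd1, with few reads, are the widest.

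Ratios between the members show their falls side by side. The ratios were chosen after the values were seen and restate the totals given above. Their 6 exact tests were adjusted together and are description, with no further support for the falls. Slc6a3 was 89.0% ± 7.48 of Th in controls and 25.2% ± 9.75 in exposed rats (SD, n = 4 each), from 82.5% to 99.7% in controls and from 12.8% to 34.7% in exposed rats. This ratio did not overlap between the groups (exact permutation P = 0.0286, adjusted P = 0.0571). En1 as a share of Th also did not overlap, with 10.3% ± 3.20 against 3.42% ± 0.838 and the same P. En1 as a share of Slc6a3 was 11.6% ± 3.69 in controls and 16.5% ± 10.7 in exposed rats (exact permutation P = 0.571). Slc18a2 was 32.9% ± 8.72 of Th in controls and 67.1% ± 12.4 in exposed rats, again without overlap (exact permutation P = 0.0286, adjusted P = 0.0571). Ddc as a share of Th was 125.9% and 108% in exposed rats 1 and 2 but 57.1% and 41.3% in exposed rats 3 and 5, and controls were from 40.4% to 61.8% (exact permutation P = 0.229). The sixth ratio, the peptide gene Cck as a share of Th, was 37.5% ± 5.90 and 45.8% ± 13.6 (exact permutation P = 0.343).

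**Figure D3:**
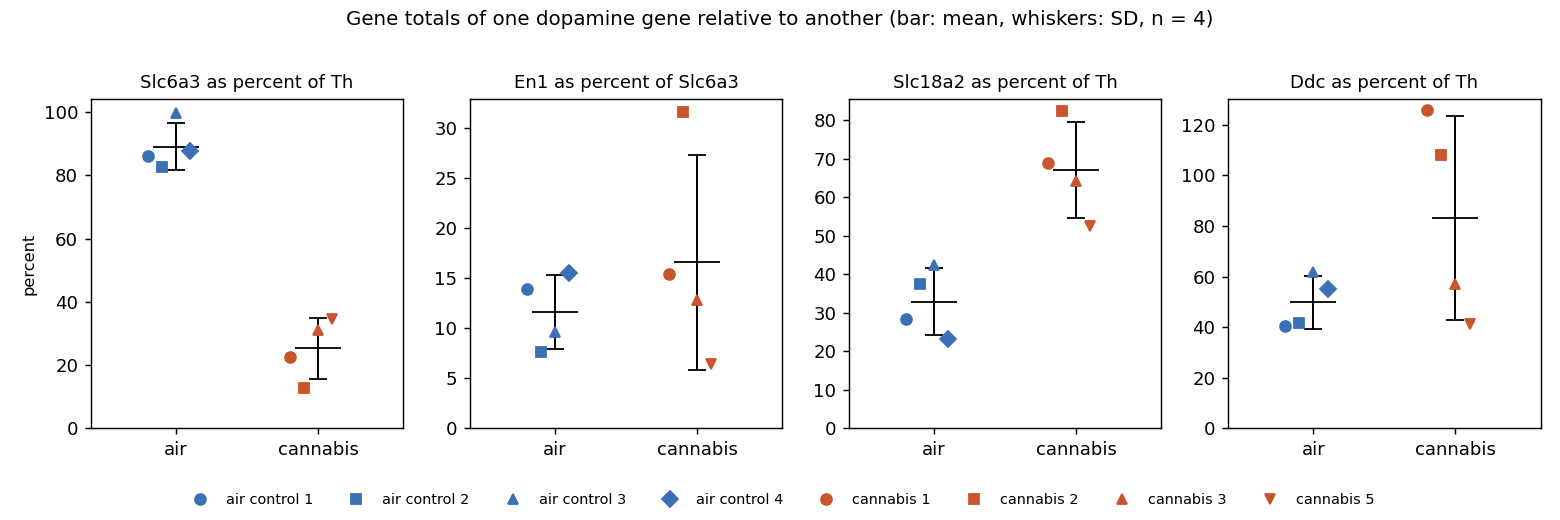
Gene total of one gene as a percent of another (vertical axis, starting at 0) in each library, with mean and SD (n = 4). Slc6a3 relative to Th lies between 82.5% and 99.7% in controls and between 12.8% and 34.7% in exposed rats, Slc18a2 relative to Th lies higher in exposed rats, and En1 relative to Slc6a3 and Ddc relative to Th overlap between the groups.

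Th, Slc6a3, En1, Drd1 and Gch1 had 1 site each, so their site and their gene total are the same value. The tables of the study differ on where the Slc6a3 site lies, at the transcript end or within an intron, so its place in the gene is in doubt and all Slc6a3 values here rest on it. Of the 23 sites, 3 were called lower, those of Slc6a3, Th and En1, and none higher, beside 0.258% lower and 0.123% higher among all 98356 sites. The adjusted P over all sites was 0.00879 for Slc6a3, 0.364 for En1 and 1.00 for Th. Ddc, called on its total, had no site called on its own. Ddc site 1 held 58.1% of its reads and had 92.5 ± 32.8 against 50.4 ± 7.11 normalized counts, and Ddc site 2 had 48.3 ± 17.3 against 28.5 ± 14.6 (SD, n = 4 each). Drd2 site 1, with 81.7% of the Drd2 reads, had 33.6, 33.5, 24.2 and 47.7 in controls and 23.6, 13.3, 13.8 and 20.7 in exposed rats. At this site the groups did not overlap (exact permutation P = 0.0286), whereas the limma P was 0.0388 and the groups overlapped in the Drd2 total. The share of all sites without overlap was not counted, so this separation has no background beside it. The main sites of Slc18a2 and Aldh1a1 held 89.1% and 84.3% of their reads, with log2 differences of -0.48 and -0.89 (exact permutation P = 0.2 and 0.4).

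No shift in site use passed the test in Ddc and Ret, the members with at least 2 sites of mean 10. Ddc site 1 took 61.0% ± 16.2 of the total in controls and 60.5% ± 10.2 in exposed rats, and Ret site 1 took 43.9% ± 17.5 and 45.0% ± 6.75 (SD, n = 4 each). Over the 5 sites tested, exact permutation P was 0.943 or higher and the largest difference was 1.09 percentage points. With sites of mean at least 5 the differences were larger, up to -11.8 points at Aldh1a1 site 1 (85.1% ± 2.25 against 73.3% ± 18.9, exact permutation P = 0.429) and 5.94 points at Slc18a2 site 2 (exact permutation P = 0.457). Their groups overlapped, and exposed rats 1 and 3 had the lowest shares at Aldh1a1 site 1, with 58.1% and 56.0%. For Ddc and Ret, control 4 had the highest shares of site 1, where Ddc site 1 held 84.0% and Ret site 1 held 69.8% of the total.

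**Figure D4:**
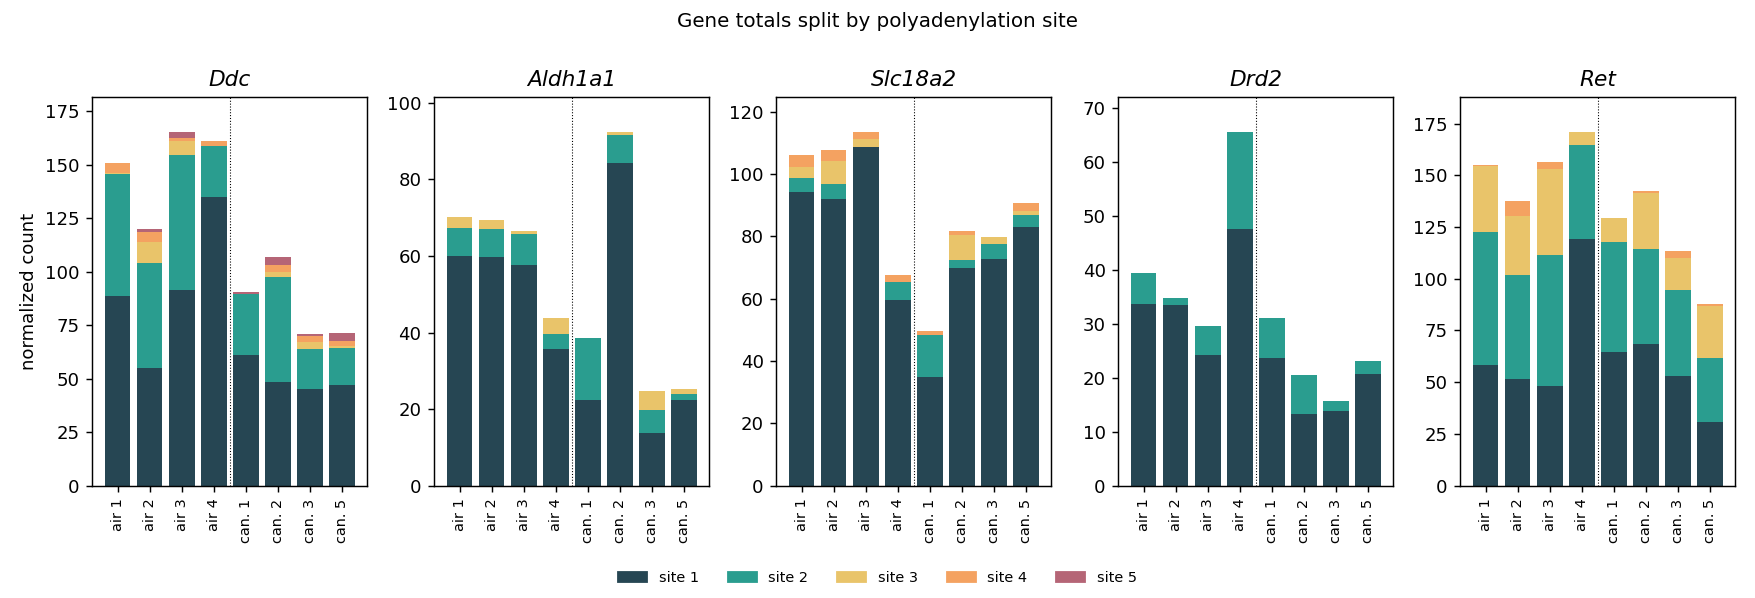
Normalized counts (vertical axis, starting at 0) of each APA site, stacked to the gene total, in the 4 air controls and the 4 cannabis-exposed rats (can.) for the 5 genes with several sites. Most of the counts of Slc18a2, Aldh1a1 and Drd2 lie at site 1 in most libraries, while Ddc and Ret use several sites in both groups.

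Members were also compared rat by rat, as deviations of log2(total + 1) from the group mean over the 8 libraries, for the 8 members with a mean of at least 10. Of the 28 pairs, 15 had a positive Pearson r, 2 passed an exact permutation P of 0.05 and 0 passed after adjustment. Ddc and Ret had the smallest P (r = 0.835, exact permutation P = 0.0330; rho = 0.833, P = 0.0226; adjusted P = 0.498), with r = 0.942 when the 2 libraries farthest from the median Ddc were left out. Slc6a3 and Th had r = 0.852 (exact permutation P = 0.0712) and rho = 0.786 (P = 0.118), with r = 0.904 without exposed rats 2 and 5. Slc6a3 and Ret had an r of the same size in the opposite direction (r = -0.852, exact permutation P = 0.0556; rho = -0.762, P = 0.201), which was -0.406 without the same rats. Slc6a3 also had negative r with Aldh1a1 (-0.769, exact permutation P = 0.142) and Ddc (-0.699, exact permutation P = 0.168). The relation of Slc18a2 and Drd2 (r = -0.838, exact permutation P = 0.0417, rho = -0.381 with P = 0.391) rested on control 4 and exposed rat 1, without which r was 0.334.

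By the pooled pattern over the 8 libraries, group difference included, Th was the gene most like Slc6a3 among 12113 others (r = 0.973, description only). C1ql1, Cyp39a1, En1 and LOC689630 came next, with r from 0.965 to 0.914. For Th the order was Slc6a3, Ube4a, Tm4sf1, C1ql1 and En1. Ddc stood at place 119 for Slc6a3, Drd2 at 206, Slc18a2 at 254, Ret at 820 and Aldh1a1 at 2398.

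Genes around the pathway came from 9 further lists. Of the 56 genes with a site, 1 was called lower and 0 higher, beside 0.178% lower and 0.1% higher among all gene totals. At these shares 0 called genes in a short list says little about its genes. The 9 genes of tetrahydrobiopterin synthesis and dopamine breakdown had a median log2 difference of 0.06, with 0 called, and Qdpr, which regenerates tetrahydrobiopterin, had the highest level at 592 ± 281 in controls and 571 ± 236 in exposed rats. Maoa, a monoamine oxidase that degrades dopamine, had a log2 difference of 0.01. Among receptor and signalling genes 6 of 7 had a site and 0 were called, with a median of -0.12. The highest level there was that of Caly, which encodes the neuronal vesicle protein calcyon, at 2474 ± 110.4 and 3157 ± 712, and Drd4 had no site with that symbol among those analysed here.

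The called gene was Cck, the precursor of the peptide cholecystokinin, which some midbrain dopamine neurons and many other neurons make. Its totals were 143, 113, 115 and 85.4 in controls and 41.0, 57.1, 46.2 and 53.8 in exposed rats. The groups did not overlap, and 0.783% of all gene totals were lower without overlap. The means were 114 ± 23.7 and 49.5 ± 7.29 (SD, n = 4 each). The log2 difference was -1.18 (SE 0.242, limma P = 0.000278, adjusted P = 0.999, exact permutation P = 0.0286), with rank 4 among all gene symbols. The lists, like the members, were chosen with earlier results of these data known, so the call and rank of Cck are description and no test. Cck stood on a list of 14 genes of midbrain dopamine neurons, of which En2, Foxa2, Chrna6 and Chrnb3 had no site with that symbol among those analysed here.

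The 10 midbrain genes with a site summed to 244 to 293 in controls and 170.2 to 217 in exposed rats, and their median log2 difference was -0.22. Without Cck and Gfra1, the 2 with the highest levels, the other 8 summed to 51.5 to 82.6 and 53.4 to 73.7 (a choice made after the values were seen), and the groups overlapped. Pitx3, a factor of midbrain dopamine neurons, had 14 reads over the controls and 2 over the exposed rats (exact permutation P = 0.257). Nr4a2 and Lmx1a, which also act in those neurons, had means of 21.3 and 18.9 in controls and 17.3 and 20.3 in exposed rats. Foxa1, of the same list, went the other way, with 12 reads over the controls and 26 over the exposed rats (exact permutation P = 0.2). Of the 10 genes with a site, 6 had a negative and 4 a positive log2 difference. The part of midbrain cells in the falls of Slc6a3, Th and En1 was not tested.

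Among other regions, the 5 genes found with arcuate dopamine neurons had a median log2 difference of 0.24, led in level by Dlx1. The 5 mammillary and posterior hypothalamus genes had a median of 0.16, led in level by Sim1. The striatal list had a median of 0.22 over 4 of 5 genes, led by Rgs9, and Adora2a had no site with that symbol among those analysed here. Of 9 genes of other monoamine neurons, Hdc and Tph2 had sites, with log2 differences of 0.01 and 0.43. The noradrenergic and serotonergic markers Dbh, Slc6a2, Phox2a, Pnmt, Slc6a4 and Fev had no site with those symbols among those analysed here, nor did Gh1, Prl and Kl of the pituitary and choroid plexus list, whose median was 0.00. None of these genes was called, nor any of the hypothalamic list (median 0.34), which held for nearly all gene totals as well.

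**Figure D5:**
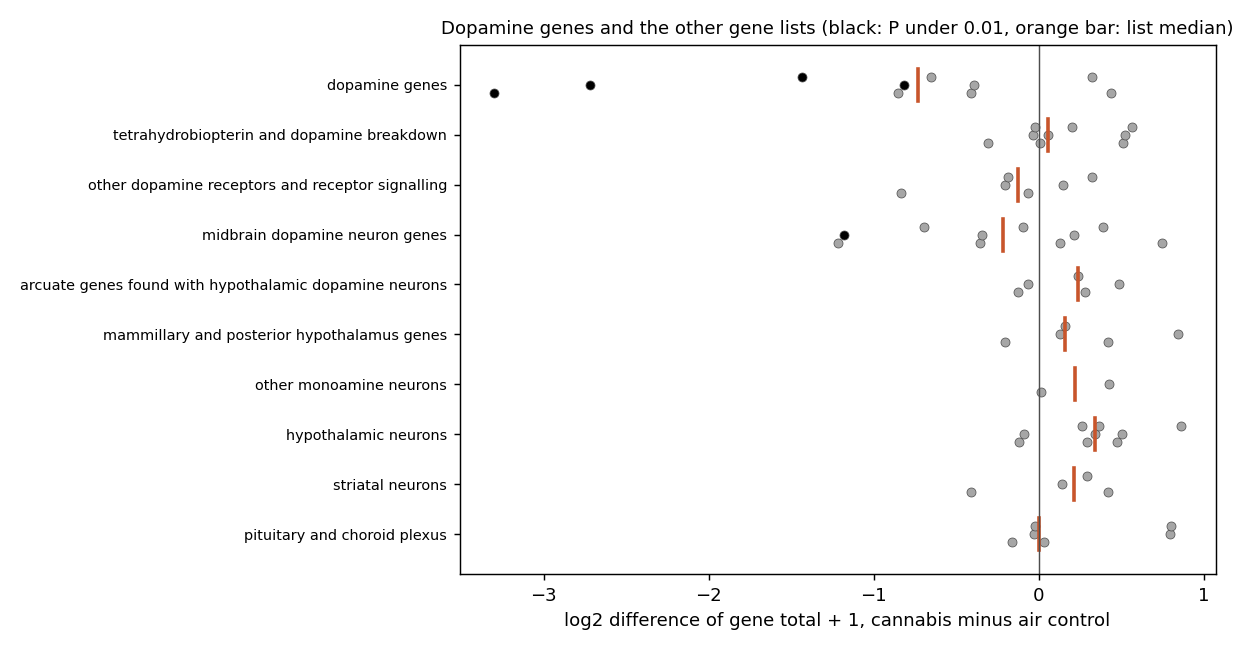
Log2 difference in gene total + 1 (cannabis minus air control) of each gene with a site, by list, with genes at limma P under 0.01 in black and the list median as an orange bar. Black points are the 4 called dopamine genes and Cck.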

How the data were processed

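The authors mapped WTTS-Seq reads to Rnor_6.0, grouped read ends within 24 nt as APA sites, required 16 reads for a site and linked sites to genes. The values the authors deposited are a signal per site, in 1 file per library: reads divided by a DESeq2 size factor. Files were joined by row order. Each value was, within 0.001 reads, a whole multiple of 1 read (100% of values), so reads were recovered and tested with edgeR 4.0.16 and DESeq2 1.42.0 as alternatives (54 and 76 gene totals at P under 0.01).

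The main test was limma 3.58.1 (R 4.3.3, mean-variance trend) on log2(value + 1), without covariates, for 18003 gene totals and 98356 sites, with calls at P under 0.01 and Benjamini-Hochberg adjustment over all. This scale understates changes of low genes. Single values had exact two-sided permutation tests. The fit was tested on simulated data. Statistics used Python 3.11.15 and scipy 1.17.1.

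The members and lists were chosen with earlier results of these data known. Named genes were all 10 members, their sites of mean at least 10 or P under 0.01, called list genes, the highest gene of each list, listed markers without a site, and the 5 genes most like Slc6a3 and Th. Others named with values (Maoa, Pomc, Agrp, Pitx3, Nr4a2, Lmx1a, Foxa1, Hdc, Tph2) were chosen after their values were seen. Some genes of the lists are counted but not reported here by name. The labels give separate samples, and the limma p-values set a group difference against the spread between samples. Alternatives were other pseudocounts, a filter on low means, scaling to equal totals, no trend, a replicate block and each library left out.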

Additional observations from a re-analysis of the deposited data

Results flagged for a closer look

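Values were looked at again where 1 library lay far from the other 3 of its group by Dixon's test at its 95% level. This met 5 of 36 tests over members and their sites, and chance gives about 1 in 20. The tests are not independent, since a gene total contains its sites, as for Aldh1a1 and its site 1. Air control 4, the library with the fewest reads, gave 4 of the 5. Its Slc18a2 total was 67.5 with the other controls at 106 to 113, and its Aldh1a1 total was 43.7 with the others at 66.5 to 70.2. At Ret site 1 it had 119 with the others at 48.3 to 58.5, and at Aldh1a1 site 1 it had 35.7 with the others at 57.7 to 59.9. Cannabis-exposed rat 2 had 84.4 normalized counts at Aldh1a1 site 1, with the other exposed rats at 13.8 to 22.4. The part of depth in these values was not tested.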

How the results depend on the processing

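Slc6a3 (log2 difference -3.71 to -2.97), En1 (-3.12 to -2.01) and Th (-1.66 to -1.23) were called lower under all 16 alternatives of their totals. The number of called members was 4 by edgeR and by DESeq2, between 3 and 5 with each library left out (4 without air control 4, the shallowest), 3 without the trend, and 1 when an adjusted P under 0.1 was asked. The 3 called sites became 5 at P under 0.05 and 1 at an adjusted P under 0.1, and were between 3 and 4 with each library left out. Ddc was not called in limma without the trend (adjusted P = 0.999). All genes called numbered 98 without the trend and 29 after a filter on a mean of 10. Adjusted P from edgeR was 0.0387 for En1 and 0.384 for Th, and from DESeq2 2.81e-05 and 0.00157.

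The labels name no pairs of rats, and the libraries showed no pairing by replicate number. Same-numbered libraries correlated at -0.235, 0.089 and -0.070 in their deviations, and 0 of 6 correlated best with their own number. So few correlations cannot exclude that same-numbered rats were handled together. With a replicate block, 3 members and 24 gene totals in all were called. The block turned Gch1 to -0.17 and Ret site 1 to 0.23. With each library left out, Gch1 ranged from -0.17 to 0.80 and Ret site 3 from -0.81 to 0.0653. Low reads limit Gch1 and Drd1, for which differences were not detectable.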
